A study of Rattus norvegicus with 28 samples.

Results

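The terminal ileum, the last stretch of the small intestine, was compared between rat pups on their first day of breast feeding and unfed newborns. The arrays were chosen by title: 3 arrays of breast-fed pups on day 1 and 4 arrays of unfed newborns (day 0), 7 of the 28 arrays of the series, with all 8740 non-control probe sets of an Affymetrix rat array. The series studies formula feeding with hypoxia, which model necrotizing enterocolitis (inflammation and tissue death in the bowel of newborns), and 1 array was made per pup. Breast-fed pups of day 1 were both fed and 1 day old, while the unfed pups were neither, so feeding and age cannot be told apart. The order in which samples were registered, a possible batch, was also uneven between the groups. Breast-fed replicates 1 and 3 and unfed replicate 1 fell in a first accession run, and breast-fed replicate 2 and unfed replicates 2 to 4 in a second. No mutation, transgene or drug is named for either group, and strain, sex and litter are not given in the labels. Of the unfed replicates, 3 are labelled as not fed and replicate 1 only as newborn. The other groups, used here only beside named genes, were breast-fed pups of days 2 to 4 and pups given formula with hypoxic stress 3 times a day, killed on days 1 to 4, with 3 pups per day.

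At birth the rat ileum passes from the supply of the placenta to milk. Its villus cells carry lactase and peptidases on their brush border, the layer of microvilli that faces the gut lumen. In suckling rodents the ileal cells also take up whole milk proteins and break them down in large lysosomes, while goblet cells secrete the mucus that covers the epithelium. Milk brings fat and cholesterol, and cholesterol from the diet is known to lower the transcription of the enzymes that make it.

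No gene passed the test between the first day of breast feeding and the unfed state. In limma's moderated test over 3185 genes, 0 genes (0%) had a Benjamini-Hochberg adjusted p under 0.05, and the lowest adjusted p was 0.064. An unadjusted p under 0.05 was reached by 186 genes (5.84%), of which 86 (2.7%) were higher and 100 (3.14%) lower in the breast-fed pups. The 2 groups did not overlap for 97 genes that were higher (3.05%) and 99 that were lower (3.11%) in the breast-fed pups. A fold of more than 2 was estimated for 28 higher genes (0.879%) and 20 lower genes (0.628%). The precision was enough to bound most genes: for 2038 of 3185 genes (64%) the 95% confidence interval of the difference lay wholly within 2-fold either way. The standard error of the log2 difference had a median of 0.303, and the median interval reached 1.54-fold to each side of the estimate. Other comparisons share the same 4 unfed arrays: against them, 47 genes (1.48%) passed on day 2 of breast feeding, 100 (3.14%) on day 3 and 272 (8.54%) on day 4, and 13 (0.408%) passed on day 1 of formula and hypoxia.

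The 7 arrays did not fall into their groups by overall profile. Correlations of log2 values over all genes tested ran between 0.9228 and 0.9549 for the 3 pairs of breast-fed arrays, between 0.8808 and 0.9607 for the 12 pairs across groups, and between 0.8802 and 0.9572 for the 6 pairs of unfed arrays. The highest of all these correlations joined breast-fed replicate 1 and unfed replicate 2, and both stood apart from the other 5 arrays on the first principal component (42.4% of the variance). The title of unfed replicate 2, alone in the series, reads aUAb where the others read aUA, and its registration number is the highest. What the extra letter stands for is not given in the titles. The beta-actin control probe sets gave a 3′ to 5′ ratio, which rises when RNA is degraded, of 1.14, 1.42 and 1.27 in the breast-fed pups, against 2.29, 0.970, 1.35 and 1.16 in the unfed pups. Measures of array quality were compared between the groups by a test that could not have passed at this size (5 measures, exact permutation p between 0.114 and 0.971, where the smallest possible p is 0.0571). The part of RNA integrity in the results below was not tested beyond a fit with this ratio as a covariate, in which 1 gene, Pmepa1, was called.

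**Figure D1:**
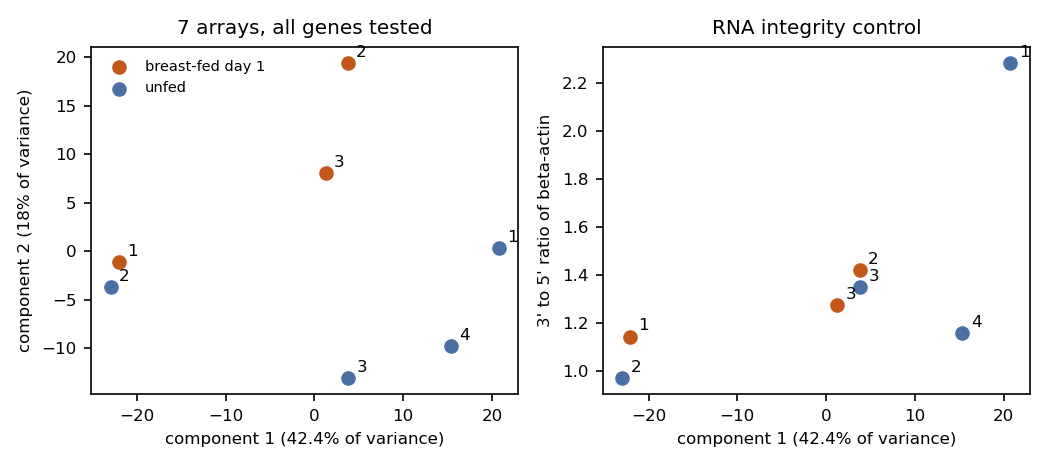
The left panel plots the 7 arrays on the first and second principal components of log2 signal over the 3185 genes tested, and the right panel plots the 3′ to 5′ ratio of beta-actin against the first component, with 1 point per pup labelled by replicate number. Breast-fed replicate 1 and unfed replicate 2 lie side by side at the left, and unfed replicate 1 has the highest ratio, 2.29.

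The genes described next are the 15 higher and the 15 lower genes with the lowest p, which were chosen after their values were seen, and members of gene lists for the tissue. The adjusted p of the 15 higher genes lay between 0.0640 and 0.407 and that of the 15 lower genes between 0.253 and 0.508, so none of them passed. In 12 of the 15 in each direction the breast-fed and unfed pups did not overlap, a count that follows in part from choosing them by p. Signals are quantile normalised intensities, given in the order of the replicates, and folds are on the scale of log2(signal + 8), which understates differences of dim genes.

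Pmepa1, which encodes a membrane protein that dampens signalling by TGF-beta and is itself induced by TGF-beta, had the lowest p. Its signal was 262, 205 and 173 in the breast-fed pups, against 12.4, 61.2, 41.7 and 88.5 in the unfed pups. All 3 breast-fed values lay above all 4 unfed values, and unfed replicate 1 was the dimmest array. The difference was 4.28-fold (95% confidence interval 2.42 to 7.58), with an adjusted p of 0.064 in limma. All 9 later breast-fed arrays, at 149.9 to 514, were also above the highest unfed array. The log2 difference was 3.44 within the first accession run, where the dim unfed replicate 1 is the only unfed array, and 1.62 within the second. Pmepa1 passed in 9 of the 23 alternatives, more than any other gene, at an adjusted p of 0.0219 with the accession run as a term and of 0.0479 after scaling to a common median.

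The promoter of Pmepa1 is shown because this gene stood nearest to a call and its known inducer acts through Smad proteins, whose core binding letters are CAGAC. The window runs from 250 bases before to 50 bases after the RefSeq start in GRCr8, chr3:182478600-182478899 (minus strand), and CAGAC or its reverse complement GTCTG is in capitals.
Pmepa1: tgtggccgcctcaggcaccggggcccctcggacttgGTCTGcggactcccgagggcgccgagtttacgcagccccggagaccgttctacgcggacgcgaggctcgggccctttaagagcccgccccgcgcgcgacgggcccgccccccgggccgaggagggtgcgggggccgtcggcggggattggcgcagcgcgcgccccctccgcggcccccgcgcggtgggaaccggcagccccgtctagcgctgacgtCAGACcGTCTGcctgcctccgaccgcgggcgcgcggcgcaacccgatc
The window holds 3 matches over both strands. At least 1 match is present in 50.1% of all 33469 RefSeq promoters of this length and 3 or more in 4.17%, so the letters describe the window and do not mark a bound site.

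Several other genes of signalling and the cell surface were among those with the lowest p. Cd24, a small adhesion glycoprotein of epithelial progenitors and immune cells, had signals of 1823, 1571 and 1752 in breast-fed pups, against 829, 1134, 1166 and 862 in unfed pups, without overlap. The difference was 1.73-fold (1.31 to 2.28) and its other 2 probe sets gave log2 differences of 0.91 and 0.87. Mmp10, the matrix protease stromelysin-2, had 168, 176 and 185 in breast-fed pups, against 64.6, 103, 61.7 and 70.9 in unfed pups, a difference of 2.26-fold (1.5 to 3.39). The breast-fed values were close to each other and all lay above the highest unfed value, that of replicate 2. Plcg2, a phospholipase of B cell and myeloid receptors, had 82.9, 68.5 and 84.8 in breast-fed pups, against 36.1, 57.5, 42.7 and 31.98 in unfed pups. Efna1, the ephrin-A1 ligand of Eph receptors, lay the other way, at 143, 97.0 and 122 in breast-fed pups, against 215, 377, 211 and 180.3 in unfed pups. Its groups did not overlap, and the breast-fed level was 1.92-fold (1.34 to 2.75) lower. Il15, a cytokine that sustains intraepithelial lymphocytes and natural killer cells, had 54.9, 71.3 and 52.4 in breast-fed pups, against 139.7, 114, 148 and 109.6 in unfed pups, and was 2.01-fold (1.27 to 3.19) lower. The 2 dimmer probe sets of Il15 gave log2 differences of 0.02 and -0.46, so the gene's probe sets disagreed. Cacna1a, a calcium channel subunit, had 70.3, 47.9 and 64.8 in breast-fed pups, against 113, 207, 104 and 101 in unfed pups. Its other 3 probe sets were below the filter on low signals, and unfed replicate 2 was its brightest array.

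**Figure D2:**
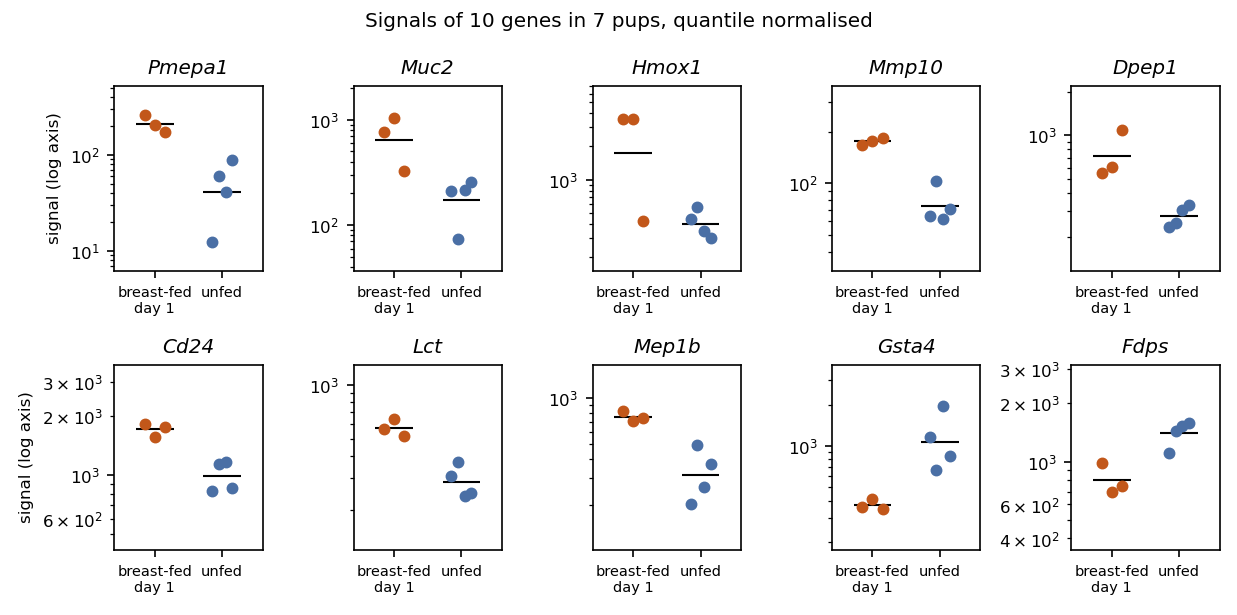
Quantile normalised signals (log axis) of 10 genes in the 3 breast-fed pups of day 1 (left of each panel) and the 4 unfed pups (right), with 1 point per pup and a line at the mean of the log2 values. The groups do not overlap in 9 of the 10 genes; for Hmox1, breast-fed replicate 3 lies among the unfed pups.

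Genes of milk digestion at the brush border were higher on average in the breast-fed pups. Of the 27 listed genes of brush border digestion and uptake that were tested, none passed, 6 had an unadjusted p under 0.05 and were higher, and 0 were lower by that measure, against 2.7% and 3.14% of all genes. The list's median log2 difference was 0.52, against -0.01 over all genes, with 17 members above 0 and 10 below. The list members named next are the 6 with that p. Members below 0 included Ggt1 (-0.80), Slc13a2 (-0.665) and Slc2a5 (-0.14), none with an unadjusted p under 0.05. Lct, lactase, which splits milk sugar, had signals of 565, 644 and 514 in breast-fed pups, against 310.2, 369, 238 and 247 in unfed pups. All breast-fed values lay above the unfed ones and the difference was 1.97-fold (95% confidence interval 1.33 to 2.90), while a second, dim probe set gave a log2 difference of 0.22. Mep1b, the beta subunit of the peptidase meprin, had 815, 704 and 741 in breast-fed pups, against 205, 493, 262 and 372 in unfed pups, again without overlap. That was a difference of 2.35-fold (1.42 to 3.88). Its partner subunit Mep1a had 1885, 1454 and 1588 in breast-fed pups, against 551, 1669, 693 and 891 in unfed pups, and here unfed replicate 2 overlapped the breast-fed range. Dpep1, a dipeptidase that also hydrolyses leukotriene D4, is not a member of this list and was named for its low p. It had 552, 609 and 1092 in breast-fed pups, against 233, 251, 306 and 329.5 in unfed pups, a difference of 2.54-fold (1.63 to 3.97). Its second probe set gave a log2 difference of 1.01. Ace, angiotensin-converting enzyme, a peptidase abundant on the brush border, had 519, 718 and 575 in breast-fed pups, against 123, 557, 244 and 308 in unfed pups, with unfed replicate 2 within the breast-fed range. Slc3a1, a subunit of the transporter for cystine and basic amino acids, had 311, 218 and 226 in breast-fed pups, against 75.0, 143, 122 and 119 in unfed pups. Tcn2, which carries vitamin B12 in blood, had 1537, 1743 and 1988 in breast-fed pups, against 948, 1424, 666 and 861 in unfed pups. Neither Slc3a1 nor Tcn2 overlapped between the groups.

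The summed signal of the brush border list was 17081, 14096 and 14085 in the breast-fed pups, against 8555, 17756, 8559 and 9981 in the unfed pups. Unfed replicate 2 thus reached the highest sum of all 7 pups, while the other 3 unfed pups lay below every breast-fed pup. Markers of ileal enterocytes, the absorptive cells, lay in the same direction: 11 of 15 were above 0, with sums of 29279, 29669 and 34639.9 in the breast-fed pups, against 20955, 35014, 19466 and 26167 in the unfed pups. Unfed replicate 2 was again the highest pup. The enterocyte and brush border lists share members, Lct among them, so the shared direction is no separate evidence. In bulk tissue, more cells of a type and more RNA per cell cannot be told apart, and the part of the cell makeup in these values was not tested. Of the markers of the labelled tissue, Fabp2, the intestinal fatty acid carrier, averaged 4955 ± 875 in breast-fed and 4394 ± 653 in unfed pups, and Fabp6, the ileal bile acid carrier, 701 ± 172 in breast-fed and 736 ± 143 in unfed pups (SD, n = 3 and 4). The interval of both differences lay within 2-fold, at 0.839 to 1.5 for Fabp2 and, as a fold lower, 0.664 to 1.67 for Fabp6; the sign turned with the scaling for Fabp2 and with 1 array left out for Fabp6. Slc10a2, the ileal bile acid transporter, was dim in both groups, at 35.5 in breast-fed and 37.96 in unfed pups, as were Cblif of the stomach, at 36.2 in breast-fed and 50.7 in unfed pups, and the pancreatic trypsinogen Prss1, at 21.4 in breast-fed and 25.0 in unfed pups. Of the 9 tested markers of exocrine pancreas, 7 lay below 0 and none passed. Among its brighter members, the elastase Cela1 averaged 607 in breast-fed and 840.2 in unfed pups. Zg16, a lectin of secretory granules also listed for goblet and Paneth cells, averaged 273 in breast-fed and 533 in unfed pups. The summed signal of the pancreas markers was 917, 1644 and 1215 in breast-fed pups, against 2113, 979, 1922 and 2199 in unfed pups, where replicate 2 alone lay in the breast-fed range.

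Lysosomal enzymes were also higher on average, by less. Of 23 listed genes of lysosomes and the neonatal Fc receptor, none passed, 5 were higher and 0 lower at an unadjusted p under 0.05, against 2.7% and 3.14% of all genes, and the median log2 difference was 0.44, with 19 above 0. Ctsl, the lysosomal protease cathepsin L, had 5949.5, 6792 and 6910.2 in breast-fed pups, against 2854, 6278, 3538 and 3538 in unfed pups. Unfed replicate 2 overlapped the breast-fed pups and the other 3 unfed pups lay well below. The difference was 1.69-fold (1.25 to 2.28), its second probe set gave a log2 value of 0.81, and Ctsl passed the test only when unfed replicate 2 was left out or array weights were used. Fuca1, which removes fucose from glycoproteins, had 1428, 1564 and 2070.5 in breast-fed pups, against 903, 1206, 836 and 1272 in unfed pups, without overlap. Man2b1, the lysosomal alpha-mannosidase, had 936, 805 and 778 in breast-fed pups, against 314, 838, 316 and 349 in unfed pups, where replicate 2 lay among the breast-fed pups. Ctss, the cathepsin of antigen-presenting cells, had 2155, 2109.9 and 2434 in breast-fed pups, against 896, 2230.5, 1373 and 1957 in unfed pups. B2m, the light chain shared by class I molecules and the neonatal Fc receptor, had 2887, 3338 and 3479.5 in breast-fed pups, against 2378, 2749, 2019.8 and 2378 in unfed pups. Fcgrt, the heavy chain of the neonatal Fc receptor, which carries maternal IgG across the suckling gut, was lower on average, at 517, 657 and 565 in breast-fed pups, against 849, 1369, 690.4 and 463 in unfed pups. The summed signal of the list was 30507, 28844 and 32868 in breast-fed pups, against 18705, 32273, 20257 and 22097 in unfed pups, so unfed replicate 2 lay within the breast-fed range here too.

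Of the mucus genes, Muc2, the gel-forming mucin of goblet cells, differed most. Its signal was 765, 1044 and 323 in breast-fed pups, against 211, 73.4, 216 and 258 in unfed pups. The groups did not overlap, but the breast-fed pups spread over more than 3-fold and unfed replicate 2 was far below the other unfed pups. The difference was 3.58-fold (95% confidence interval 1.85 to 6.92), with an adjusted p of 0.286 in limma. A second probe set above the filter, much dimmer, gave a log2 difference of 0.07. Tff3, the trefoil peptide secreted with mucin, had 4612, 6701 and 5534 in breast-fed pups, against 4814, 2166, 5477 and 5994 in unfed pups, overlapping in full. Muc13, a membrane mucin, had 1044, 831 and 1153 in breast-fed pups, against 303, 1728, 211 and 589 in unfed pups, and unfed replicate 2 was its brightest array. Muc3, another membrane mucin, had 384, 285 and 154 in breast-fed pups, against 702, 741, 335 and 284 in unfed pups, a lower average, while its other 2 probe sets gave log2 differences of 0.38 and 0.29. Over the 7 tested markers of goblet and Paneth cells the median log2 difference was 0.05, with 4 above 0 and 3 below. The lowest, Zg16, averaged 273 in breast-fed and 533 in unfed pups, a log2 difference of -0.99, and its groups overlapped.

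Genes of cholesterol synthesis were lower on average in the breast-fed pups. Of 16 tested genes none passed, 5 were lower and 0 higher at an unadjusted p under 0.05, against 3.14% lower and 2.7% higher over all genes, and 3 did not overlap and were lower, against 3.11% of all genes. The median log2 difference was -0.34, with 14 members below 0 and 2 above. Fdps, farnesyl diphosphate synthase, had 984, 697 and 749 in breast-fed pups, against 1110.1, 1432, 1519 and 1580.1 in unfed pups, without overlap. Its level was 1.74-fold (95% confidence interval 1.25 to 2.42) lower, and its 3 probe sets gave log2 differences of -0.80, -0.65 and -0.96. Mvk, mevalonate kinase, was dim, at 36.2, 18.2 and 35.5 in breast-fed pups, against 71.8, 63.7, 74.3 and 133 in unfed pups. Msmo1, the sterol C4-methyl oxidase, had 577, 349 and 692 in breast-fed pups, against 693, 868, 718 and 1008 in unfed pups. For both Mvk and Msmo1 every breast-fed value lay below every unfed value. Mvd, which makes isopentenyl diphosphate, had 153, 69.6 and 113 in breast-fed pups, against 124, 184, 173 and 173 in unfed pups, and Hsd17b7, a reductase of sterol synthesis, had 42.5, 28.4 and 45.0 in breast-fed pups, against 50.4, 44.2, 58.4 and 93.6 in unfed pups. Acat2, which makes acetoacetyl-CoA at the head of the pathway, had 1054, 556 and 852 in breast-fed pups, against 1121, 976, 1224 and 1082 in unfed pups. Breast-fed replicates 1 and 3 and unfed replicate 1 belong to the first accession run and the other 4 arrays to the second. Each run thus has 1 array in one of the groups: breast-fed replicate 2 in the second and unfed replicate 1 in the first. Unfed replicate 2, counted in the second run, was registered apart from the rest of that run. Within the arrays of the second accession run the log2 difference of Fdps was -1.10 and that of Mvd -1.25, and within the first run they were -0.37 and 0.09. In the second run Mvk, Msmo1, Hsd17b7 and Acat2 had log2 differences of -1.84, -1.28, -0.96 and -0.96. In the first run they had -0.86, -0.13, -0.18 and -0.24, so each of these genes differed less there. The list's sums were 5633, 3643 and 5139 in breast-fed pups, against 5839, 6037, 6402 and 7659.6 in unfed pups, and breast-fed replicate 2, whose deposited trimmed mean was 109.2 against about 150 on the other arrays, was the lowest.

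The promoters of Fdps and Mvk are shown because these had the lowest p of the list, and CCAAT boxes, bound by the factor NF-Y, are known beside the sterol-responsive elements of such genes. The windows are of the same kind, chr2:176804767-176805066 (minus strand) and chr12:47819454-47819753 (minus strand) of GRCr8, with CCAAT and its reverse complement ATTGG in capitals.
Fdps: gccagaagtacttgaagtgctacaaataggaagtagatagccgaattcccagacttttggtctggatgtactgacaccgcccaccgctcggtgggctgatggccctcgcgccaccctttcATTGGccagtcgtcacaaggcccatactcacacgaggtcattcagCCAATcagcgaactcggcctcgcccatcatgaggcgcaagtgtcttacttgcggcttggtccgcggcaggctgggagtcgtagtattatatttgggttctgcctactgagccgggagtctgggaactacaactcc
Mvk: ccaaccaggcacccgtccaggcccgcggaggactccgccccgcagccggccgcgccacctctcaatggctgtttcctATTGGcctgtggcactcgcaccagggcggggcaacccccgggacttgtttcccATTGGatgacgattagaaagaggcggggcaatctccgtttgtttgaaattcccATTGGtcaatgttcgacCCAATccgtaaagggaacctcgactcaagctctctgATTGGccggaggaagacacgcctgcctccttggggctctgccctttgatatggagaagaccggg
Fdps holds 2 matches and Mvk 5 over both strands. Of the 16 cholesterol genes, 14 have a promoter in the RefSeq table and 10 of these (71.4%) hold at least 1 match, against 37.5% of all 33469 promoters. A match is a description of the window and says nothing of binding in these pups.

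Few genes of fat handling differed beyond the spread between pups. Of 21 tested genes of fat absorption, 2 were higher and 0 lower at an unadjusted p under 0.05, against 2.7% and 3.14% of all genes. The median log2 difference was 0.17. Apob, the structural protein of chylomicrons, had 2219, 1304 and 486 in breast-fed pups, against 366, 765, 699 and 431 in unfed pups, with breast-fed replicate 3 inside the unfed range. Its other probe sets above the filter gave log2 differences of -0.07, -0.65 and 1.75, so no single direction holds for Apob. Apoa1, the main protein of high density lipoprotein, had 5028, 7431 and 7575 in breast-fed pups, against 3878, 6011, 4249 and 6579 in unfed pups. Lipa, the lysosomal acid lipase, had 595, 497 and 742 in breast-fed pups, against 267, 459, 298 and 534 in unfed pups. The probe set used for Lipa gave a log2 difference of 0.68, and its others gave 0.32 and 0.28. Of 28 genes of fatty acid oxidation and ketone bodies, 0 reached an unadjusted p under 0.05 in either direction. The mitochondrial thiolase Acaa2 averaged 1894 ± 302 in breast-fed and 1437 ± 125 in unfed pups (SD, n = 3 and 4), a difference of 1.31-fold (0.979 to 1.75). Of 11 genes of gluconeogenesis and glycogen, 0 reached that p either, and the glucose-6-phosphate transporter Slc37a4 averaged 834 ± 113 in breast-fed and 710.2 ± 137 in unfed pups, a difference of 1.18-fold (0.83 to 1.68).

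Hmox1, the heme oxygenase that degrades heme and is induced by oxidative stress, had the largest estimate of all genes tested, on uneven pups. Its signal was 3514, 3514 and 427 in breast-fed pups, against 439, 564, 343 and 300.4 in unfed pups. Breast-fed replicates 1 and 2 were far above every unfed pup and breast-fed replicate 3 lay within the unfed range. The difference was 4.3-fold (95% confidence interval 1.93 to 9.56), with an adjusted p of 0.316 in limma, and without breast-fed replicate 3 the adjusted p was 0.00328. The second probe set gave a log2 difference of 2.71. Gpx3, the secreted glutathione peroxidase, had 1543, 2943 and 1669 in breast-fed pups, against 492, 1564, 940.3 and 785 in unfed pups, and the later breast-fed arrays lay at 2230.5 to 8137. Gclm, the regulatory subunit of glutamate-cysteine ligase, had 282, 296 and 232 in breast-fed pups, against 192, 180.0, 211 and 176 in unfed pups, without overlap. Gsta4, a glutathione transferase that clears the lipid peroxidation product 4-hydroxynonenal, lay the other way. It had 359, 414 and 349 in breast-fed pups, against 1169, 672, 1942 and 851 in unfed pups, with every breast-fed pup below every unfed pup, and was 2.83-fold (1.62 to 4.92) lower. Its second probe set gave a log2 difference of -1.75. Over the 49 tested antioxidant and xenobiotic enzymes, 3 were higher and 3 lower at an unadjusted p under 0.05, against 2.7% and 3.14% of all genes. Without overlap, 1 was higher and 5 were lower, against 3.05% and 3.11% of all genes. The median log2 difference was -0.03.

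The remaining genes with the lowest p had varied roles. Ero1b, which forms disulfide bonds in the endoplasmic reticulum, had 94.6, 91.2 and 110.0 in breast-fed pups, against 39.9, 61.3, 50.4 and 51.2 in unfed pups. Capn8, a calpain protease of the gut, had 83.1, 78.2 and 72.8 in breast-fed pups, against 31.1, 60.3, 28.6 and 50.6 in unfed pups, and Pakap, an anchor protein for protein kinase A, had 85.8, 60.9 and 48.7 in breast-fed pups, against 36.9, 21.5, 22.3 and 25.3 in unfed pups. None of these 3 overlapped between the groups, and each was higher in the breast-fed pups. Among the lower genes, Hikeshi, the nuclear import carrier of heat shock protein, had 174, 385 and 312 in breast-fed pups, against 517, 422, 575 and 523 in unfed pups. Mrpl44, a mitochondrial ribosomal protein, had 64.5, 51.2 and 94.4 in breast-fed pups, against 127, 105, 154 and 159 in unfed pups. Rab3ip, an exchange factor for Rab8 in apical traffic, had 109, 52.9 and 93.5 in breast-fed pups, against 208, 200.2, 239 and 146 in unfed pups. All 3 were lower without overlap, Hikeshi by 1.81-fold, Mrpl44 by 1.88-fold and Rab3ip by 2.26-fold. Dnaja3, a mitochondrial co-chaperone, had 21.0, 26.1 and 35.9 in breast-fed pups, against 114, 72.5, 66.1 and 82.8 in unfed pups. Pts, which makes a precursor of tetrahydrobiopterin, had 78.0, 61.0 and 68.2 in breast-fed pups, against 131, 95.1, 199.9 and 106 in unfed pups. Both were again lower without overlap. Gpr176, an orphan receptor, had 72.0, 33.7 and 36.0 in breast-fed pups, against 170.1, 116, 92.8 and 95.2 in unfed pups, without overlap, while a second probe set gave a log2 difference of 0.12. Ndrg2, a gene linked to cell differentiation, had 43.8, 4.82 and 33.9 in breast-fed pups, against 72.6, 63.5, 78.5 and 68.2 in unfed pups, and breast-fed replicate 2 was far below the rest. Dgcr6 had 44.6, 12.3 and 57.5 in breast-fed pups, against 111, 56.2, 133 and 157 in unfed pups, where unfed replicate 2 lay just below the highest breast-fed pup. The kinase Pim3 had 29.4, 21.8 and 19.8 in breast-fed pups, against 27.4, 88.6, 87.8 and 46.2 in unfed pups, with unfed replicate 1 inside the breast-fed range. The chromatin remodeller Chd2 had 68.4, 20.8 and 45.7 in breast-fed pups, against 79.8, 113, 80.3 and 63.0 in unfed pups, also overlapping.

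Few genes of the immediate early and immune lists differed beyond the spread between pups. Of 34 immediate early genes, 0 were higher and 3 lower at an unadjusted p under 0.05, against 2.7% and 3.14% of all genes. Of the 34, 25 lay below 0 and 9 above, where 48.9% of all genes lay above, with a median of -0.21. Dusp1, a phosphatase that ends MAP kinase signals, was dim, at 13.2, 13.8 and 16.6 in breast-fed pups, against 27.5, 23.0, 54.1 and 60.7 in unfed pups, without overlap. Cebpb, a transcription factor of acute responses, had 161, 93.9 and 189 in breast-fed pups, against 174, 235, 217 and 325 in unfed pups. Of 20 inflammatory genes, 1 was higher and 0 lower at that p: Il1b, at 43.4, 90.3 and 69.7 in breast-fed pups, against 43.9, 31.4, 46.4 and 28.1 in unfed pups, where breast-fed replicate 1 lay within the unfed range. Il18, a cytokine made by the epithelium, had 643, 699 and 639.9 in breast-fed pups, against 971, 1028, 1272 and 746 in unfed pups, lower without overlap but with an unadjusted p above 0.05. S100a8, carried by granulocytes, had 20.2, 14.6 and 29.9 in breast-fed pups, against 93.6, 17.3, 97.3 and 57.1 in unfed pups, and Lcn2, an antimicrobial protein, had 114, 195 and 219 in breast-fed pups, against 187, 42.8, 71.9 and 100.2 in unfed pups. Of 13 lymphocyte markers 0 reached an unadjusted p under 0.05 in either direction, and 11 of the 13 had intervals within 2-fold.

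Smooth muscle markers were higher on average in the breast-fed pups. Of 16 tested markers none passed, 4 were higher and 0 lower at an unadjusted p under 0.05, against 2.7% and 3.14% of all genes, 5 did not overlap and were higher, against 3.05% of all genes, and the median log2 difference was 0.53. Myl9, a myosin light chain, had 3775, 2854 and 3107 in breast-fed pups, against 2230.5, 1323, 2593 and 1253 in unfed pups. Des, the intermediate filament desmin, had 233, 188 and 282 in breast-fed pups, against 117, 42.0, 138 and 118 in unfed pups, and Tpm1, a tropomyosin, had 1662, 1864 and 1766 in breast-fed pups, against 1274, 499, 1336 and 1183 in unfed pups. In all 3 genes every breast-fed value was above every unfed value, and for Des and Tpm1 unfed replicate 2 was the lowest pup. The probe set used for Tpm1 gave a log2 difference of 0.81, and its others above the filter gave 0.71, 0.38 and 0.02. The list's sum was 15949.9, 13856 and 14228 in breast-fed pups, against 11197, 8847, 12827 and 7677 in unfed pups. How much muscle wall each piece of tissue held was not recorded in the labels, and its part in the values was not tested. Red cell markers lay below 0 in 8 of 8, with a median of -0.31 and sums of 15428, 16480.0 and 13892 in breast-fed pups, against 18479, 17009, 16998 and 19826 in unfed pups. Alas2, which starts heme synthesis in red cell precursors, had 275, 275 and 215 in breast-fed pups, against 313, 535, 688 and 414 in unfed pups, without overlap, and was 1.82-fold (1.21 to 2.74) lower. The beta-globin Hbb averaged 8499 ± 704 in breast-fed and 9458 ± 1267 in unfed pups (SD, n = 3 and 4).

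Large housekeeping lists held few genes that differed beyond the spread between pups. Of 36 cytosolic ribosomal protein genes, 32 had an interval within 2-fold, and 8 lay above 0 and 28 below, where 48.9% of all genes lay above. At an unadjusted p under 0.05, 0 were higher and 1 lower, against 2.7% and 3.14% of all genes. The lower gene, Rpl11, had 6011, 6078 and 5861 in breast-fed pups, against 6323, 7306, 8966 and 9132 in unfed pups. Its second probe set gave a log2 difference of -0.16. Of 29 genes of cell proliferation, 0 reached that p in either direction and 21 had an interval within 2-fold. Tubb5, a tubulin of dividing cells, averaged 1174 ± 83.0 in breast-fed and 1543 ± 445 in unfed pups, and the histone variant H2az1 averaged 1619 ± 108 in breast-fed and 1897 ± 286 in unfed pups. Of 31 genes of oxidative phosphorylation and 26 of heat shock and endoplasmic reticulum stress, 0 reached that p in either direction. Of the 31, 10 lay above 0 and 21 below. An interval within 2-fold was found for 15 of the 31 and 10 of the 26, a smaller share than the 64% of all genes.

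**Figure D3:**
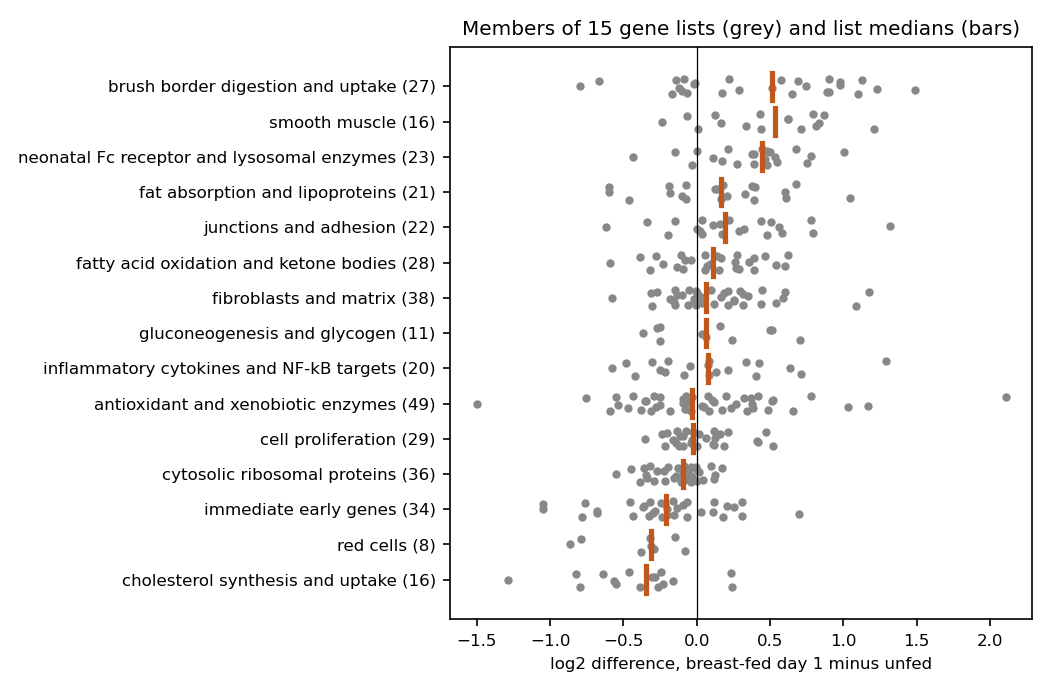
Each grey point is the log2 difference, breast-fed day 1 minus unfed, of 1 tested gene, and each bar is the median of its list, for 15 lists with the number of tested genes in brackets. Brush border and smooth muscle genes have the highest medians, 0.52 and 0.53, and genes of cholesterol synthesis have the lowest, -0.34; no point passed the test.

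The values on later days are set beside those of day 1 for the 30 genes with the lowest p, since both comparisons with day 1 use the same 3 breast-fed arrays. The mean of breast-fed days 2 to 4 minus day 1 passed for 0 of the 30 genes, and for 1 of 3185 genes in all (0.0314%). Dpep1, Mmp10, Cd24, Muc2, Mep1b, Gpx3 and Fuca1 were, like Pmepa1, above the highest unfed pup in all 9 later breast-fed arrays. These were 8 of the 30 genes, against 1.76% of all genes; since the 30 were chosen by p against the same 4 unfed arrays, nothing is read from this count or from the next. Muc2 lay at 775 to 2091 in those arrays and Mep1b at 746 to 1377. Fdps, Rab3ip, Pts and Il15 were below the lowest unfed pup in all 9 (4 of the 30 genes, against 1.22% of all genes), and Fdps lay at 362 to 754. Hmox1 lay at 385 to 1484 on later days and was above the highest unfed pup in 3 of 9 arrays. Lct lay at 259 to 617, above the highest unfed pup in 5 of 9. Gsta4, at 428 to 1064, was below the lowest unfed pup in 3 of 9, and Cacna1a, at 95.1 to 132, in 4 of 9.

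**Figure D4:**
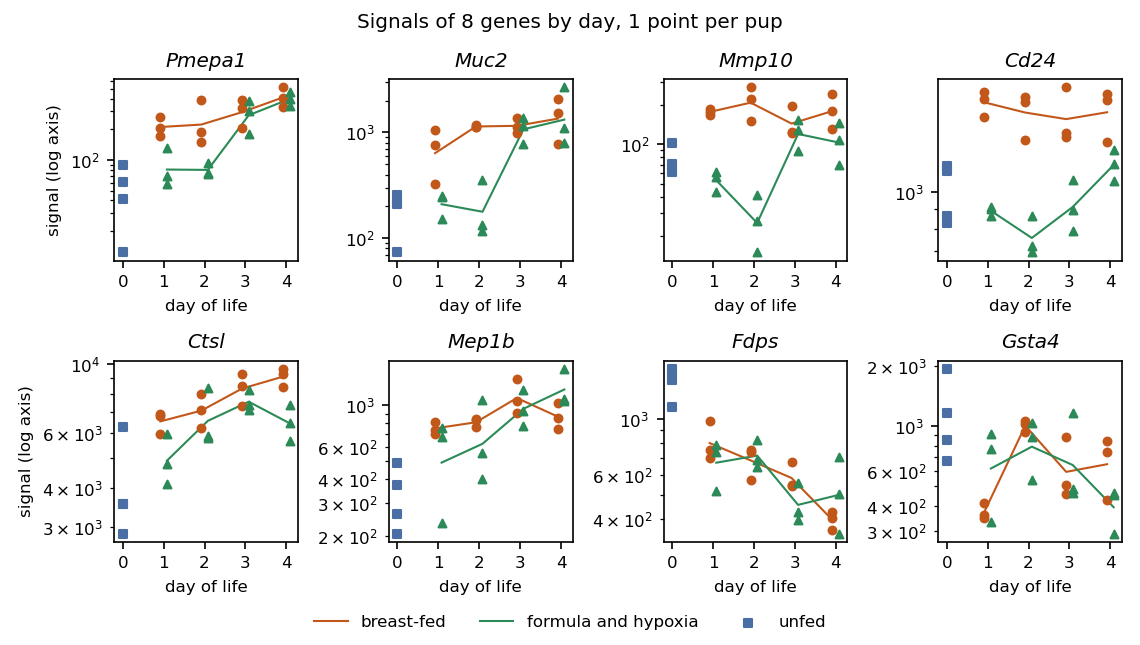
Quantile normalised signals (log axis) of 8 genes by day of life, with 1 point per pup: unfed pups at day 0, breast-fed pups and pups given formula with hypoxia on days 1 to 4; lines join the means of the log2 values. Pmepa1, Muc2, Mmp10, Cd24 and Mep1b are above every unfed pup on all breast-fed days, and Fdps is below every unfed pup.

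On day 1, pups given formula and hypoxia differed from the breast-fed pups of the same age in 3 of the 30 genes, against 9 of 3185 genes in all (0.283%). These 30 genes were chosen with the same breast-fed arrays, so the count is no independent evidence. Mmp10 had 43.7, 56.6 and 61.3 under formula and hypoxia, against 168, 176 and 185 in the breast-fed pups, a log2 difference of -1.58 (limma adjusted p = 0.0348). Cd24 had 862, 911 and 903 under formula and hypoxia, against 1823, 1571 and 1752 in the breast-fed pups, a log2 difference of -0.93 (adjusted p = 0.0462). The formula values of Mmp10 lay below every unfed pup, and those of Cd24 lay within the unfed range. Efna1 had 313, 316 and 279.8 under formula and hypoxia, against 143, 97.0 and 122 in the breast-fed pups, a log2 difference of 1.29 (adjusted p = 0.0391). With the deposited scaling, with the accession run as a term, or without any 1 of the 3 breast-fed arrays, 0 of the 30 genes passed here. Among genes that did not pass, Pmepa1 had 132, 57.6 and 68.8 under formula and hypoxia, against 262, 205 and 173 in the breast-fed pups. Muc2 had 153, 248 and 243 under formula and hypoxia, against 765, 1044 and 323 in the breast-fed pups. Mep1b had 234, 756 and 676 under formula and hypoxia, against 815, 704 and 741 in the breast-fed pups, so formula replicate 1 alone lay far below. Fdps had 738, 518 and 787 under formula and hypoxia, against 984, 697 and 749 in the breast-fed pups, and its values overlapped.

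The number of genes called rested on how the arrays were weighted. With weights estimated by limma from how far each array strays from its group, 62 of 3185 genes passed, 30 higher and 32 lower. Among them were 13 of the 15 higher and 11 of the 15 lower genes described above. Those genes were chosen by p on the same arrays, so that count is no independent evidence. In that fit breast-fed replicate 3 and unfed replicate 3 had weights of 2.93 and 2.99, and the other 5 arrays between 0.443 and 0.901, so the comparison leaned on 1 pup of each group. Ctsl and Fuca1 (adjusted p = 0.00435 for both), Man2b1 (0.0127), Lct (0.0127) and Mep1b (0.0127) were higher, and Gsta4 (0.00384), Alas2 (0.00948) and Fdps (0.0161) were lower in it. Muc2 (0.092) and Hmox1 (0.205) did not pass in it.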

How the data were processed

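Total RNA of the terminal ileum, kept in RNAlater, was hybridised to 1 Affymetrix rat array per pup, per the labels. The deposited values are probe set intensities on a linear scale. From the values, the authors had scaled most arrays to a common trimmed mean of about 150; the software, background correction and summary method are, in the sources used here, not given. The number of arrays, 3 against 4, limits the precision.

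The intensities were quantile normalised, 8 was added and log2 taken. Probe sets were kept above the 40th percentile of mean log2 signal (a signal of 24.0), and the brightest probe set with 1 symbol was used per gene, which left 3185 genes. Of 8740 non-control probe sets, 7006 had 1 symbol in the platform annotation, 308 several and 1426 none, and 5244 passed the filter. limma 3.58.1 in R 4.3.3 fitted 1 mean per group to all 28 arrays (19 residual degrees of freedom), with an intensity trend. Breast-fed day 3 replicate 3 lost 70 abundant probe sets and breast-fed day 4 replicate 2 lost 49. A lost probe set had a median over 500 in the other arrays and lay more than 16-fold below it. Both arrays add to the pooled spread and to the later breast-fed values, and a fit without them was among the alternatives. Tests were two-sided with Benjamini-Hochberg adjustment over all genes, and a gene was called at an adjusted p under 0.05. The procedure was tested on data simulated with independent errors for each gene. Those data lack the deviations that genes share within an array here, so that test does not cover them.

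The arrays, the 43 gene lists (728 listed genes tested) and the tests were chosen with earlier results of these data known. The rule for named genes was the called genes of largest change and, for lists without a called gene, the 2 members of highest signal. As no gene was called, the 15 genes per direction with the lowest p, and list members of low p, were added after their values were seen. The label numbers do not pair the pups: the deviations of same-numbered arrays from their group means correlated at -0.47, -0.29 and -0.05. The labels do not name separate litters, so p-values measure the spread between these pups. Alternatives covered scaling, pseudocount, filter, probe sets, arrays fitted, array weights, accession run (the order in which samples were registered, taken as a possible batch), a replicate block, each of the 7 arrays left out and, added after the data were seen, a beta-actin ratio covariate and both arrays that stand apart left out.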

Additional observations from a re-analysis of the deposited data

Results flagged for a closer look

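In each of 99 named genes the highest and lowest of the 4 unfed arrays were checked for a gap to the nearest other array above Dixon's 95% critical value, which chance gives in about 1 in 20 groups. There were 8 such genes, 6 in unfed replicate 2 and 2 in unfed replicate 1. Unfed replicate 2 was alone at the low end for Muc2 (signal 73.4), Des (42.0) and Tpm1 (499) and alone at the high end for Cacna1a (207), Man2b1 (838) and Slc37a4 (914). Unfed replicate 1 was alone at the low end for Mvd (124) and Rab14 (27.7).

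For 3 genes the change from the unfed state to day 1 differed between the regimens by the test of the difference itself, formula and hypoxia minus breast feeding on day 1. The log2 difference was -1.585 for Mmp10, -0.9346 for Cd24 and 1.2886 for Efna1 (limma, adjusted over all genes). The 3 genes were chosen with the same breast-fed arrays, so this is no independent evidence, and none of them passed with the deposited scaling, with the accession run as a term or without any 1 of the 3 breast-fed arrays.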

How the results depend on the processing

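The count of genes called, 0, was 62 with array weights (23 of them list members), 3 within accession run 1 (Pmepa1, Rab14 and Tst), where unfed replicate 1 is the only unfed array and stands alone at the low end for Rab14, and 1, Pmepa1, in each of 5 fits: common median, 60th percentile filter, accession run as a term, replicate block and beta-actin ratio as a covariate. Leaving out each array in turn gave 0 to 3 genes and 0 to 1 list members: Hmox1 without breast-fed replicate 3, Ctsl, Ift25 and Pmepa1 without unfed replicate 2, and Pmepa1 without unfed replicate 4. Of the 30 genes with the lowest p, those called later in breast feeding were 5 with array weights and 0 to 1 with an array left out, against 0. Those called under formula and hypoxia were 5 with array weights, 0 in each of 3 fits (deposited scaling, run as a term, within run 1), 1 with the replicate block and 0 to 3 with an array left out, against 3. The causes were not tested.

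Over 99 named genes and 23 alternatives, 2205 of 2264 values kept their direction and their side of the threshold, 45 were newly called and 14 turned sign, and 90 genes had no turn. The log2 values that turned were Fabp2 (-0.0396 with the deposited scaling, -0.0892 with a common median), Fbp2 (-0.0195 and -0.0688 in the same fits), Mvd (0.0855), Ass1 (0.3026) and Lcn2 (-0.2283) within run 1, and Fabp6 (0.3908), Mgst1 (0.0031), Hbb (0.0545) and Cela1 (0.0913) within run 2. Fabp6 also turned without breast-fed replicate 1, breast-fed replicate 3 or unfed replicate 1, and lay between -0.2659 and 0.0231 with an array left out. The median log2 difference of all genes was -0.01 here, -0.03 with the deposited scaling and -0.08 with a common median, under which 1297 genes were higher and 1888 lower, against 1557 and 1628. Fits within a run, or with 2 arrays left in a group, take the spread from the other groups. With 3 and 4 arrays the limit was coarse: even estimates of 4.28-fold (Pmepa1) and 4.3-fold (Hmox1) did not pass.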

Other observations

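Some values lie outside the comparisons above. Ass1, argininosuccinate synthase of the arginine pathway, had signals of 1931, 468 and 821 in breast-fed pups, against 1020.1, 3978, 1494 and 2650.4 in unfed pups, and was 2.20-fold (1.17 to 4.14) lower on average. Its log2 difference was 0.30 within the first accession run and -2.40 within the second. Fabp1, the liver-type fatty acid carrier, had 4789, 6858 and 6967 in breast-fed pups, against 3538, 7647, 2825 and 3440.3 in unfed pups, and all 9 later breast-fed arrays, at 392 to 2452, were below the lowest unfed pup. Ctrc, a pancreatic protease, had 22.5, 26.5 and 26.0 in breast-fed pups, against 92.0, 24.5, 81.2 and 64.9 in unfed pups, where replicate 2 alone lay in the breast-fed range. Slc30a1, a zinc exporter, had 81.4, 38.6 and 29.5 in breast-fed pups, against 18.6, 40.1, 12.9 and 12.7 in unfed pups. Serpinh1, the collagen chaperone, had 192, 138 and 153 in breast-fed pups, against 197, 243, 267 and 265 in unfed pups, without overlap. Cd44, the hyaluronan receptor, had 62.8, 46.7 and 54.4 in breast-fed pups, against 11.1, 39.1, 42.4 and 30.6 in unfed pups, and Anxa2, a membrane-binding annexin, had 4696, 4866 and 5829.5 in breast-fed pups, against 3173, 4636, 3479.5 and 3244 in unfed pups; neither overlapped. None of these passed the test (limma).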
